A study of Mus musculus with 6 samples.

Results

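The genes described here are 6 carriers and signals of intestinal bile acid handling, Slc10a2, Fabp6, Slc51a, Slc51b, Fgf15 and Nr0b2. They were chosen by name from the 21255 genes of the deposited table, and each of the 6 has a row. The study compared organoids of small intestinal crypts from mice with the alleles C/EBPα Flox/Flox and VillinCreERT2 (C/EBPα KO) and from C/EBPα Flox/Flox mice without Cre (control, labelled wildtype). Cre is driven by the villin promoter, active in intestinal epithelium, and 4-OHT makes it excise the floxed gene. Both groups received 4-OHT, given in the labels as 400 nM over 2 days, while the study's methods give a higher dose. The study's methods name jejunal crypts as the source, whereas the labels say small intestinal crypts. Age and sex are not given in the sources used here. There are 3 libraries per genotype, but the names of the other 3 value columns (numbered 4 to 6) match no C/EBPα KO label (S7, S8 and S9). Those columns were not assigned by elimination, and the values below describe the control libraries S1, S2 and S3, with no comparison between genotypes. Where 3 values of a gene are listed, they belong to S1, S2 and S3 in this order.

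Bile acids are made from cholesterol in the liver, released into the duodenum and recovered almost entirely in the terminal ileum. Enterocytes there take them up at the brush border through ASBT (Slc10a2), carry them bound to the ileal bile acid binding protein (Fabp6) and release them to the blood through the OSTα and OSTβ heterodimer (Slc51a and Slc51b). Inside the cell they activate the nuclear receptor FXR (Nr1h4), which pairs with RXR and induces Fabp6, Slc51a, Slc51b, the corepressor SHP (Nr0b2) and the hormone FGF15. FGF15 then reaches the liver and represses bile acid synthesis. The jejunum has little of the active uptake system, so these genes also tell gut regions apart.

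The total on genes was between 30405545 and 36819530 reads per control library, and 1 read was worth 0.946 to 1.15 normalized counts. Cebpa, the gene targeted in the study, had 6446, 5829 and 6016 normalized counts. The libraries differed in a sex-linked transcript, since Xist, which coats and silences 1 X in female cells, had 18.9, 15423 and 14769 normalized counts. Ddx3y, a gene of the Y chromosome, had 1256, 67.3 and 2.30, so that S1 had a male pattern and S2 and S3 a female level of Xist, with 63 reads of Ddx3y in S2. S1 thus held cells of another animal than S3. The spread between libraries therefore includes a difference of animal and sex between S1 and S3. Since the labels name no mice, it may also be partly technical.

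The promoter of the cytosolic binding protein is shown because this gene was barely detected here, while FXR, its known inducer, was clearly expressed. Per kb of transcript, Nr1h4 (FXR) was above 74.8% of genes with a length. The line holds the 250 bases before the RefSeq start of Fabp6 (GRCm38.p6, minus strand), at chr11:43601563-43601812. Capitals mark an inverted repeat of the FXR type (IR-1) and, after it, the letters of a TATA box read on the opposite strand.
Fabp6: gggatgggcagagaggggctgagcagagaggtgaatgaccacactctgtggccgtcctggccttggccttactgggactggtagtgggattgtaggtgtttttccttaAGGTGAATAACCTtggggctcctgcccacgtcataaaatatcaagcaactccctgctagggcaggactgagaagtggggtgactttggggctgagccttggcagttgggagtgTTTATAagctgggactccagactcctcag
The stretch was searched on both strands, as were those of the other genes with a RefSeq window. The IR-1 repeat, searched as AGGTNA and its reverse complement 1 base apart, occurred once in Fabp6, from 142 to 130 bases before the start, and in 0.0183% of 32851 promoter windows of the same length. Its stricter spelling with AGGTCA, which the looser one includes, was in 0 of the 5 windows found for these genes (Slc10a2, Fabp6, Slc51a, Slc51b and Nr0b2), and in 0.00609% of all windows. The looser spelling was chosen after the stricter one gave no match, so its share of windows is a description only. The letters TATAAA of a TATA box stood in Nr0b2 and, on the opposite strand (printed as TTTATA), in Fabp6, and on either strand in 12.4% of windows. The C/EBP palindrome TTGCGCAA, the site CAAGGTCA of NR5A2 and the GATA site AGATAA were each in 0 of the 5 windows, and in 0.164%, 1.33% and 9.99% of all windows. A match is a description of letters and shows no binding.

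Of the 6 genes, the basolateral exporter was clearly expressed in control organoids, SHP, the uptake carrier and the hormone were low, and the binding protein was close to the detection limit. With a threshold of 10 for the mean normalized count, 5 of the 6 genes passed, beside 64.9% of all genes in the table. Fabp6 was the exception. At a threshold of 100, Slc51a and Slc51b passed, beside 51.4% of all genes, and at a threshold of 1 all 6 did, beside 83.7%. The intervals given with reads are exact Poisson 95% intervals and cover counting error only.

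**Figure D1:**
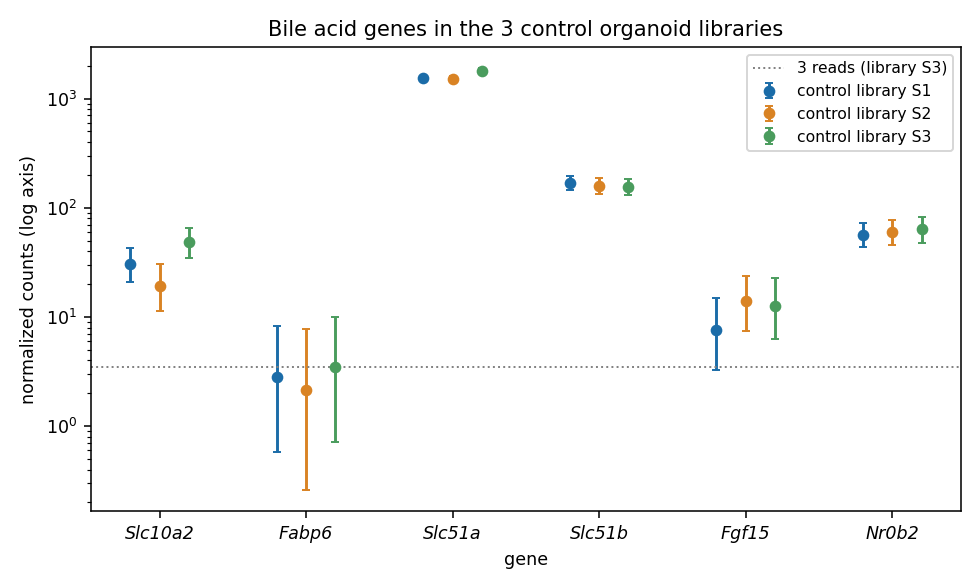
Normalized counts (log axis) of the 6 genes in each control library, with exact Poisson 95% intervals and a dotted line at the value of 3 reads in S3. Slc51a lies between 1524 and 1796, whereas the 3 values of Fabp6 sit at 2.14 to 3.45, on or under the dotted line.

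Slc10a2, the sodium-dependent carrier that brings bile acids in from the lumen, had 30.3, 19.2 and 48.3 normalized counts, a mean of 32.6 ± 14.7 (SD, n = 3). These values rest on 32, 18 and 42 reads. S3 was the highest and S2 the lowest, and their counting intervals, 34.8 to 65.3 and 11.4 to 30.4, did not overlap. The interval of S1 overlapped each of the others.

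Fabp6, the cytosolic carrier that marks ileal enterocytes, had 2.84, 2.14 and 3.45 normalized counts. These are 3, 2 and 3 reads, 8 in all. No library exceeded 3 reads, the one-sided limit for a count of 0, so Fabp6 was barely detected and its level is known only roughly. Of the 5 other listed fatty acid binding proteins with a row, Fabp1, Fabp2 and Fabp5 passed the threshold, beside 64.9% of all genes. Fabp1, the liver-type protein of proximal enterocytes, had 178111 ± 18549 normalized counts and Fabp2, the intestinal type, 23223 ± 1056 (SD, n = 3). Per kb of transcript, Fabp2 exceeded Fabp6 by 4131-fold, with an exact 95% counting interval of 2096 to 9569 over pooled reads. Per kb of coding length the ratio was 8016.

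Slc51a, the subunit of OST that crosses the membrane several times, had 1536, 1524 and 1796 normalized counts, a mean of 1619 ± 154 (SD, n = 3). S3 stood above the others, with a counting interval of 1708 to 1888 against 1462 to 1612 in S1 and 1446 to 1605 in S2. Slc51b, its single-span partner without which the transporter does not reach the surface, had 169, 159 and 155 normalized counts, a mean of 161 ± 7.24. Here S1 was the highest, and the 3 counting intervals overlapped. Per kb of transcript, Slc51a exceeded Slc51b by 2.46-fold in S1, 2.59-fold in S2 and 3.13-fold in S3. The alpha subunit was thus above the beta subunit in 3 of 3 libraries, and the ratio per kb of coding length was 3.78.

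Fgf15, the hormone that FXR induces in ileal enterocytes, had 7.57, 13.9 and 12.7 normalized counts, a mean of 11.4 ± 3.35 (SD, n = 3). These are 8, 13 and 11 reads, and their counting intervals overlapped throughout. Its endocrine relative Fgf21 had 0, 1 and 2 reads. Nr0b2, whose product SHP dampens other nuclear receptors, had 56.8, 59.8 and 63.3 normalized counts, a mean of 60.0 ± 3.26. Its values lay close together, from 55 to 60 reads per library.

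Levels of different genes were compared per kb of the longest coding transcript in GENCODE M21, as normalized counts are not corrected for length. Slc51a led with 618 ± 58.9 normalized counts per kb, above 75.8% of the 15804 genes with a length. Slc51b followed with 228 ± 10.2 (above 55.3%) and Nr0b2 with 53.0 ± 2.88 (above 36.6%). The ranges of these genes over the libraries did not touch. Slc10a2 had 7.86 ± 3.54 normalized counts per kb, Fgf15 6.28 ± 1.85 and Fabp6 5.87 ± 1.37, each above 24.1% to 25.6% of genes. Neighbours among these last 3 genes did not differ beyond their spread, since their ranges overlapped. Per kb of coding length the order was the same, but Fgf15 and Fabp6 no longer overlapped. Slc51a exceeded Slc10a2 by 79.5-fold per kb of transcript (counting interval 64.7 to 98.8), and by 50.8-fold per kb of coding length. By library the ratio per kb of transcript was 80.4, 126 and 58.9, a wider range than the counting interval.

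Among the 6 genes, Slc10a2 varied the most between libraries. Its coefficient of variation was 45.0%, against 18.1% that counting alone gives. It was higher than that of 87.4% of the 1671 genes within 2-fold of its level. Slc51a varied by 9.52%, against 2.56% from counting, and lay above 90.1% of the 4528 genes of like level. For the other genes the spread was at or under what counting gives, with 29.5% against 30.7% for Fgf15, 23.4% against 61.5% for Fabp6, 5.44% against 13.3% for Nr0b2 and 4.49% against 8.08% for Slc51b. A spread above counting error is usual, as the median gene varied by 22.1% against 15.5% from counting at 32 to 64 normalized counts, and by 4.69% against 2.70% at 1024 to 2048. The values of Slc10a2 and Slc51a are therefore described by their place among genes of like level, and no difference between libraries was tested.

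**Figure D2:**
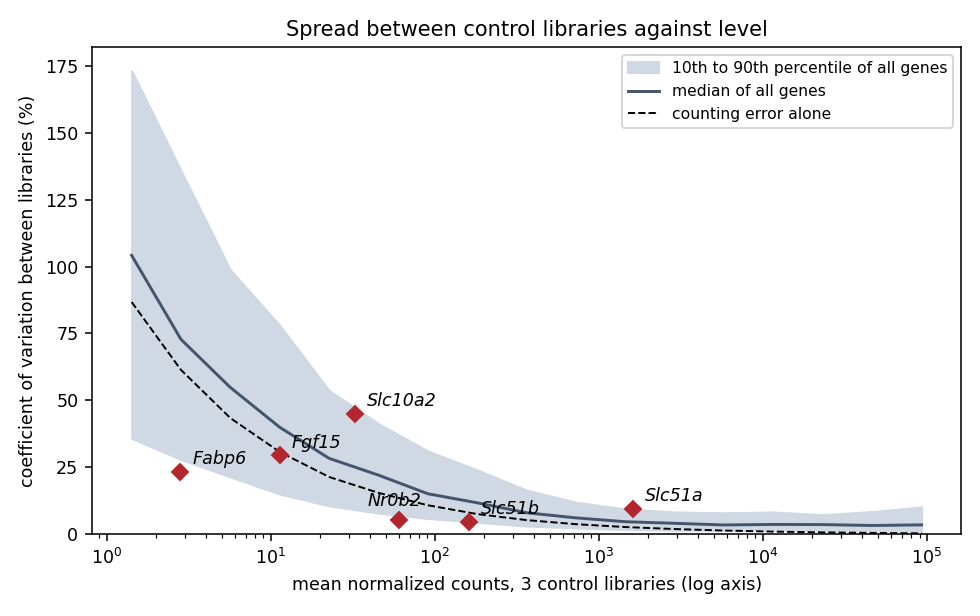
Coefficient of variation between the 3 control libraries (%) against mean normalized counts (log axis). The band holds the 10th to 90th percentile of all genes at each level, the solid line their median and the dashed line counting error alone; Slc10a2 and Slc51a lie above the dashed line, and the other 4 genes at or under it.

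Both Slc10a2 and Slc51a were highest in S3. Over the 13803 genes at or above the threshold of 10, 33.1% were highest in S3, 29.9% in S2 and 37.0% in S1. Of the 4 ileal markers that are not among the genes described here, 3 were highest in S3 (the hormones Pyy and Nts and the vitamin B12 receptor gene Cubn) and 1, Amn, in S1. Cubn had 110, 113 and 189.9 normalized counts. Of the 10 markers of duodenum and jejunum, 4 were highest in S3 and 4 in S1. Among those highest in S3 was Ada, an adenosine deaminase, with 371, 469 and 967. The summed level of the 4 ileal markers that are not bile acid genes was 2345, 1844 and 2239 normalized counts, highest in S1. With the bile acid genes of the list added, the sum over 9 markers was 4090, 3562 and 4256, and that of the 10 proximal markers was 338433, 322820 and 286946. Most of the proximal sum came from Fabp1 (181477, 194747 and 158110) and Apoa4 (116007, 87916 and 88987), so it says little about the other proximal markers. The part of these differences between libraries in the values of Slc10a2 and Slc51a was not tested.

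For each gene, those with the most similar pattern over the 3 libraries were sought among genes whose mean passed the threshold of 10 and lay within 1 unit of its mean log2(normalized count + 1), by the root mean square difference of these log2 values centred per gene. For Slc10a2 they were Gm35570 and Gm14327 (differences of 0.05 and 0.06 among 1668 genes), for Slc51a B4galt4 and Mccc1, for Slc51b Pced1a and Kctd7, for Fgf15 Apcdd1 and Gm9905, and for Nr0b2 Ppp1r18 and Resp18. No gene is given for Fabp6, since its own mean is under that threshold, which left out most genes of its level. With 3 libraries many genes share a pattern, and these names carry no more than that.

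Markers of gut regions were compared with the bile acid genes to place the organoids along the gut. Genes of duodenum and jejunum were mostly abundant, and 10 of 10 passed a mean of 10 normalized counts, beside 64.9% of all genes. Their median was 709 normalized counts per kb against 169 over all genes. Gata4, a transcription factor present in proximal small intestine and absent from the terminal ileum, had 6573, 6499 and 6420 normalized counts. Per kb it exceeded Slc10a2 by 247-fold (counting interval 201 to 307), or 157-fold per kb of coding length. By library the ratio was 265, 413 and 162, a wider range than the counting interval. Fabp1 led the list at 322082 ± 33542 normalized counts per kb, followed by the apolipoprotein Apoa4 at 53794 ± 8770 and the retinol binding protein Rbp2 at 27074 ± 1345. Lactase (Lct), a jejunal brush border enzyme, had 852 ± 150.4 per kb. The proximal list was uneven too. Cybrd1 had 565 ± 26.8 per kb, Ada 357 ± 189, Akp3 252 ± 74.4 and Onecut2 169 ± 29.9, with means below that of Slc51a at 618. Onecut2 was near the median of all genes. Pdx1, the duodenal transcription factor, was the lowest of the list at 12.4 ± 4.08 per kb. Its order against Slc10a2 depended on the length used. Per kb of transcript Slc10a2 was lower in each library, per kb of coding length the means were 31.2 for Slc10a2 and 31.3 for Pdx1, and without a length the means were 32.6 and 26.7, with Slc10a2 above in S1 and S3.

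The 9 ileal markers, 5 of them among the genes described here, had a median of 45.4 normalized counts per kb. Of the 4 others, Amn, which anchors the vitamin B12 receptor, reached 963 ± 103 per kb and neurotensin (Nts) 274 ± 77.2. Cubn, the partner of Amn, stood at 12.2 ± 4.02 and Pyy at 45.4 ± 19.1. The ileal list was therefore divided, with Amn, Slc51a, Nts and Slc51b above the median of all genes and Pyy, Cubn, Slc10a2, Fgf15 and Fabp6 below it. In bulk RNA, fewer cells of a type and less RNA per cell cannot be told apart, which holds for these low values too. The study's methods list no bile acid among the additions to the organoid medium. The part of this in the levels of the FXR targets was not tested.

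**Figure D3:**
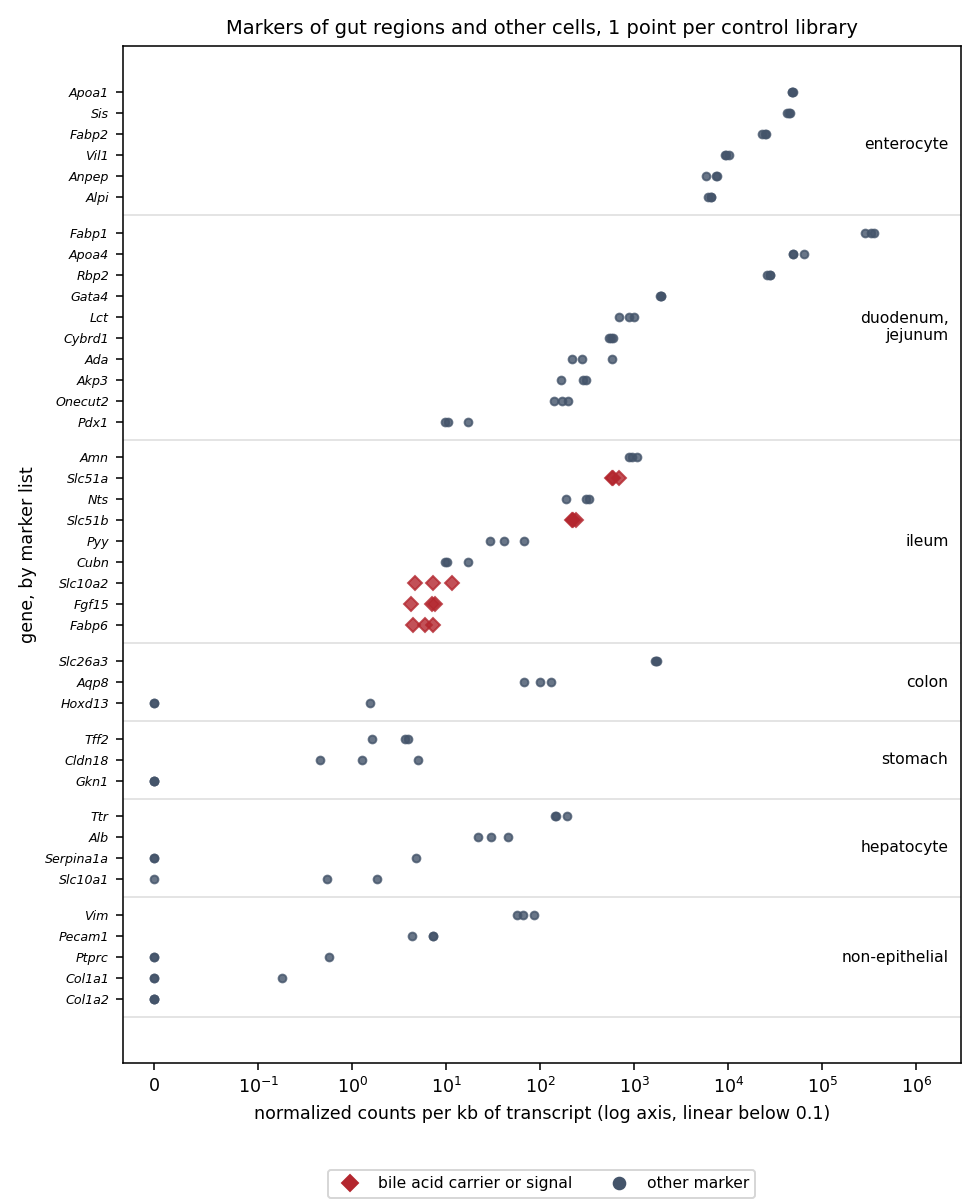
Normalized counts per kb of transcript (log axis, linear below 0.1) of marker genes by list, with 1 point per control library and the bile acid genes as diamonds. Slc10a2, Fgf15 and Fabp6 lie between 4.18 and 11.6, below each of the 10 proximal markers in the same library on this scale (without a length, Slc10a2 is above Pdx1 in S1 and S3), while Slc51a and Slc51b lie among them.

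The cells were epithelial by their markers. Enterocyte genes, 6 of 6 above the threshold beside 64.9% of all genes, had a median of 16855 normalized counts per kb. Apoa1 and sucrase-isomaltase (Sis) led them. Of 3 colonic markers with a row, the chloride exchanger Slc26a3, also made in small intestine, had 4967 ± 138 normalized counts and Aqp8 147 ± 47.7, while Hoxd13 had 4 reads in S1 and 0 in S2 and S3. Of 3 stomach genes with a row, 0 had a mean at the threshold, beside 64.9% of all genes. Gkn1 had 0 reads in each library, whereas Cldn18 had 1.89, 5.34 and 20.7 normalized counts, above the threshold in S3 alone. Among hepatocyte genes, Ttr had 192 ± 31.8 normalized counts and Alb 66.1 ± 24.7, but Slc10a1, the liver's own bile acid carrier, had 1, 3 and 0 reads. Of 5 non-epithelial markers, Vim (153 ± 34.2) and Pecam1 (21.4 ± 5.56) passed, beside 64.9% of all genes, and Col1a2 had 0 reads. By a one-sided limit a count of 0 allows up to 3 reads, or 2.84, 3.21 and 3.45 normalized counts, and the two-sided exact interval used for the other values reaches 3.49, 3.94 and 4.25.

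The nuclear receptors that read bile acids were present at levels far above those of Fgf15 and Nr0b2. Nr1h4 (FXR) had 1153, 1213 and 1176 normalized counts, a mean of 1181 ± 29.95 (SD, n = 3), with a spread within counting error. Per kb it exceeded its target Nr0b2 by 11.1-fold (counting interval 9.52 to 13.0). Its partners Rxra and Rxrb had 1181 ± 20.7 and 641 ± 4.64 normalized counts per kb. Vdr, the vitamin D receptor, which also binds lithocholic acid, had 3515 ± 233 per kb, and the xenobiotic receptors Nr1i2 (PXR) and Nr1i3 (CAR) had 872 ± 49.0 and 882 ± 63.5. Of the 14 genes on this list, 13 reached a mean of 10 normalized counts, beside 64.9% of all genes. The exception was Gpbar1, the cell surface bile acid receptor TGR5, with 5, 2 and 0 reads. Klb passed only through S3, and without that library 12 genes passed.

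Among factors known to act on these promoters, Hnf4a was abundant, above 98.2% of genes with a length, and Nr5a2 was moderate, above 62.1%. Hnf4a had 8512 ± 262 normalized counts per kb. Nr5a2 (LRH-1) had 316 ± 14.8 per kb, and Malrd1 (Diet1), which promotes FGF15 production, 326 ± 20.7. The receptor for FGF15 was uneven between its parts. Fgfr4 had 264, 264 and 235 normalized counts, whereas its coreceptor β-Klotho (Klb) had 5.68, 6.41 and 25.3. Klb was thus higher in S3, with 22 reads against 6 in each of the others, and Fgfr4 was not.

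Several other transporters of bile acids, sterols and conjugates lay above Slc51a per kb of transcript. Of 12 genes with a row, 8 passed the mean of 10 normalized counts, a share near the 64.9% of all genes. Abcc2 (MRP2), an apical exporter of conjugates, had 2013 ± 154 normalized counts per kb, and the basolateral exporter Abcc3 (MRP3) 1488 ± 165. Abcc3 was 2.40-fold above Slc51a per kb of transcript (counting interval 2.33 to 2.48), but 1.03-fold per kb of coding length. The sterol exporters Abcg5 and Abcg8 had 1882 ± 151 and 1316 ± 40.8 per kb, Abcb1a 2131 ± 177 and Slco2b1, an uptake carrier of organic anions, 958 ± 33.7. The liver carriers had few reads. In S1, S2 and S3 there were 1, 2 and 1 reads of the bile salt export pump Abcb11 and 2, 0 and 0 of Slco1b2. These were at the detection limit, while Abcb4 had 3, 6 and 4 reads.

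Of the 10 listed enzymes that make and conjugate bile acids, 7 have a row here. These 7 passed the threshold, beside 64.9% of all genes. Moderate levels were seen for Hsd3b7 at 517 ± 30.7 normalized counts per kb, Acox2 at 446 ± 17.8 and Amacr at 281 ± 12.6. The mitochondrial hydroxylase Cyp27a1 had 152, 266 and 236 normalized counts. The genes of the final steps were low, as Baat, which joins bile acids to taurine or glycine, had 16.8 ± 2.11 per kb and Slc27a5 28.0 ± 3.32. Akr1d1 was the lowest at 7.25 ± 2.58. The other 3 of the list, Cyp7a1, Cyp7b1 and Cyp8b1, were not analysed here.

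**Figure D4:**
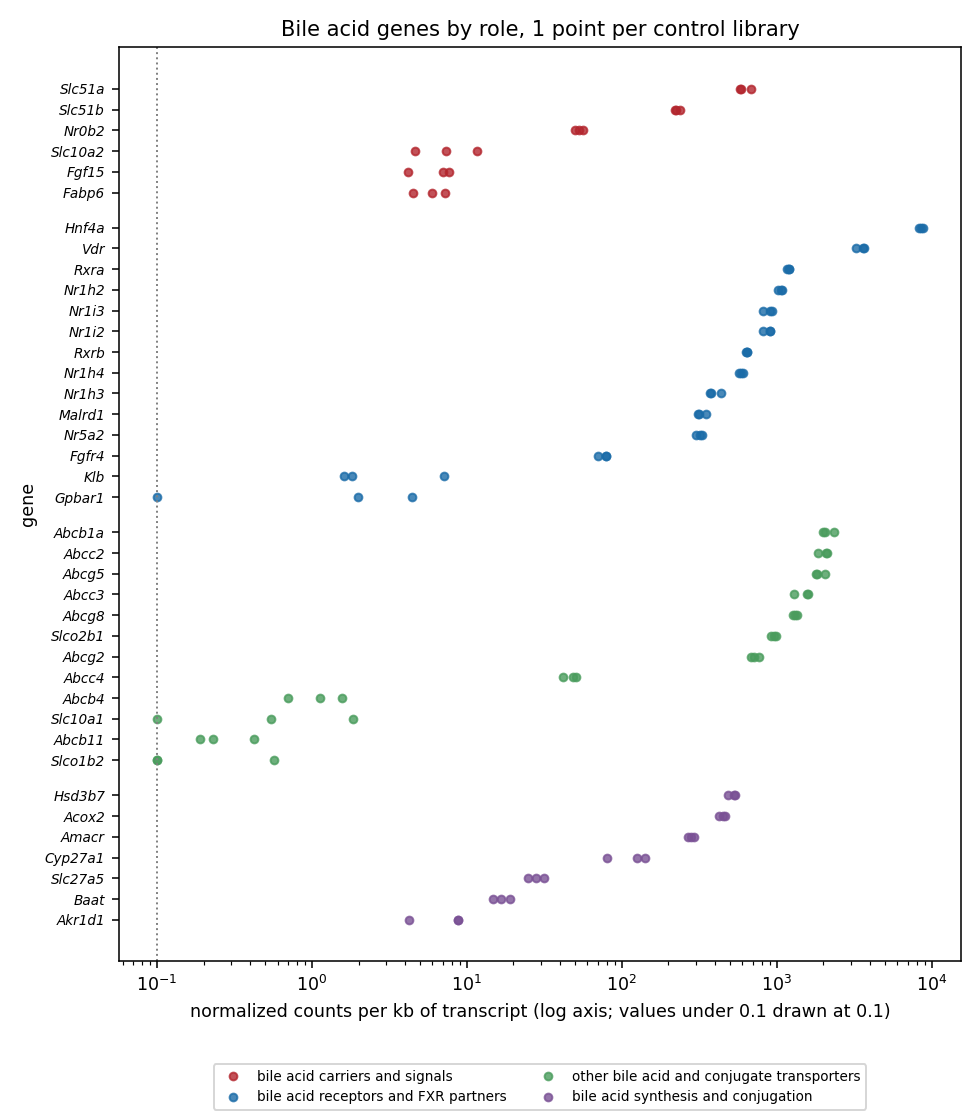
Normalized counts per kb of transcript (log axis, values under 0.1 drawn at 0.1) by role, 1 point per control library. Nr1h4 lies near 587 together with Slc51a, whereas Slc10a2, Fgf15 and Fabp6 lie below 12. Klb and Gpbar1 also lie below 12, and in S2 both lie under Slc10a2, Fgf15 and Fabp6. The value of Gpbar1 in S3 is 0 and is drawn at 0.1.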

How the data were processed

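The authors mapped paired-end reads of polyadenylated RNA with Bowtie2 2.2.9 (build mm9 in the submitters' processing notes), quantified genes with RSEM 1.2.31 and used DESeq2 1.14.1. The annotation release is not given in the sources used here. The deposited table holds a signal per gene and library that the authors call normalized counts. In the control columns 100% of values were whole multiples (within 0.1) of 1 read, so reads were recovered. Of 21256 rows, 1 repeated an identifier and was left out, and 21213 of 21255 identifiers were named from GENCODE M21. The 3 value columns matching no sample label were not used. The planned comparison of C/EBPα KO with control (limma) and its alternatives were therefore not run, and no test between groups was made.

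Levels are means ± SD over 3 libraries. Lengths are those of the longest protein-coding transcript in GENCODE M21, which is on another build than the reads. RefSeq promoter windows (GRCm38.p6) matched 5 of the 6 genes. The looser IR-1 spelling was chosen after the stricter one gave no match. The members and lists were chosen with earlier results of these data known. Genes named are the 6 members, Cebpa, Xist and Ddx3y, the nearest genes in pattern, and, from each of 12 lists, at most 6 with the most counts and those under 3 reads; other list genes were named after their values were seen. Alternatives were scaling to library totals or the upper quartile, coding length or no length, thresholds of 1 and 100, and leaving out each library. Calculations were tested on simulated data. Work was done in Python 3.11.15 with scipy 1.17.1 for intervals, pandas 2.3.3 for tables and numpy 2.4.6. Some genes of the lists are not reported here.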

Additional observations from a re-analysis of the deposited data

How the results depend on the processing

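No paired analysis was made because the control libraries are the only group with columns that match labels. Scaling to library totals or the upper quartile moved the level of each of the 6 genes by less than its SD. Without 1 library the means ranged from 24.8 to 39.3 for Slc10a2, 2.49 to 3.15 for Fabp6, 1530 to 1666 for Slc51a, 157 to 164 for Slc51b, 10.1 to 13.3 for Fgf15 and 58.3 to 61.6 for Nr0b2. Of 5 neighbouring pairs in the order of levels, 2 overlapped per kb of transcript, 1 per kb of coding length and 0 without a length. With a mean of at least 100 in place of 10, the genes above the threshold were 2 of the 6 members, 4 bile acid enzymes, 0 endocrine FGFs, 5 ileal markers, 1 hepatocyte marker and 1 non-epithelial marker. With a mean of at least 1 they were 2 endocrine FGFs, 2 stomach markers and 4 hepatocyte markers. Leaving out a library gave 0 to 1 stomach markers, with Cldn18 passing without S1 or S2. The other 90 alternative values stayed within 1 SD or 1.5 times of those given. For the levels without 1 library this outcome was fixed in advance. With 3 libraries, leaving 1 out cannot move a mean by 1 SD, so those values say nothing about stability. Depth limits Fabp6, with 8 reads in all, and Fgf15, with 32.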
